A study of Mus musculus with 20 samples.

Results

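The 34 genes described here encode enzymes that add methyl groups to, or remove them from, lysines of histone H3, together with subunits of Polycomb repressive complex 2 (PRC2). They were taken by name, not by any measured value, although earlier results of these data were known. All are among the 23853 gene symbols common to the count tables of 3 ages, and all 34 were measured in every library. By role they are 8 writers of H3K4 methylation (Setd1a, Setd1b, Kmt2a, Kmt2b, Kmt2c, Kmt2d, Setd7, Smyd3). A group of 5 genes listed as H3K4 demethylases holds Kdm1a, Kdm1b, Kdm2b, Kdm5a and Kdm5b. Kdm2b, the paralog of Kdm2a, could also be placed with the H3K36 demethylases. There are 5 PRC2 genes (Ezh1, Ezh2, Eed, Suz12, Jarid2) and the H3K27 demethylase Kdm6b. The rest are 5 H3K36 methyltransferases (Setd2, Nsd1, Whsc1, Whsc1l1, Ash1l), 8 demethylases of H3K36 and H3K9 (Kdm2a, Kdm3a, Kdm3b, Kdm4a, Kdm4b, Kdm4c, Kdm4d, Phf8), the H3K79 methyltransferase Dot1l and Setdb2, a member of the H3K9 methyltransferase family.

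RNA was sequenced from male mouse germ cells that had been purified by flow sorting for green fluorescent protein. The animals had a mixed strain background and were heterozygous (Tex15+/-) or knockout (Tex15-/-) for Tex15, a germ cell gene needed for male fertility. Each genotype had 3 libraries at each fetal age, e16.5 and e18.5 (days of embryonic development), and 4 at postnatal day 2 (d2), which makes 20 libraries in 6 groups. No wild-type group was used, so the controls throughout lacked 1 copy of Tex15. The driver of the fluorescent protein and the deleted part of Tex15 are not given in the sources used here. The series text calls the replicates biological, but the labels tie no library to an animal, so the p-values rest on library-to-library spread, which may be technical.

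Methylation of H3K4 marks promoters and enhancers, and the SETD1 and KMT2 enzymes lay it down within COMPASS complexes. PRC2 methylates H3K27 through EZH1 or EZH2, and KDM6B removes that mark. In fetal male germ cells, which stop dividing and regain DNA methylation before birth, NSD1 lays down H3K36 dimethylation, a mark known to guide new DNA methylation there, while KDM1B is best known for clearing H3K4 methylation in growing oocytes so that maternal imprints can be set.

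Total counts ran from 14.3 to 31.5 M per library, of which 7.78 to 14.2 M fell in genes, and levels are given as CPM (gene counts per 1 M, scaled by TMM factors). All 8 germ cell markers (Ddx4, Dazl and others) were counted in every group, with summed levels of 4013 to 8665 CPM per library, against 28.1 to 89.7 CPM for 8 Sertoli cell markers, 12.9 to 111 CPM for 6 Leydig cell markers, 75.2 to 149.7 CPM for 5 endothelial markers and 123 to 332 CPM for 9 stroma markers. Tex15 lay at 612 to 2103 CPM in heterozygous libraries and at 1.70 to 5.34 CPM in knockout libraries, except that the library labelled knockout replicate 2 at d2 held 799 counts, or 102 CPM. The counts of knockout calls at d2, and each d2 call named below that was lost or gained when that library was left out, are given without it too. At e16.5 heterozygous replicate 3 was the lowest of its group for 22 of the 34 genes, heterozygous replicate 1 the highest for 21 and knockout replicate 2 the highest for 20. The tables of e16.5 and e18.5 list the same symbols, whereas the d2 table lacks 642 of them and holds 488 others, so a change of counting or preparation between the embryonic and the d2 libraries cannot be told apart from age. In bulk RNA, fewer cells of a type and less RNA per cell cannot be told apart either.

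Levels were compared between genes only per kilobase of exon (union of GENCODE M21 exons). In heterozygous cells at e16.5 Kdm1b stood highest of the 34, at 292 ± 60.3 CPM per kb (SD, n = 3). Kdm3a, an H3K9 demethylase, followed with 171 ± 4.39, and Kdm1a came next with 97.7 ± 5.39. Nsd1 (81.8 ± 4.15) and Setd1a (81.0 ± 5.78), the next in order, did not differ beyond their SD. At d2 the order had changed. Kmt2a, a founding member of the KMT2 family, led with 89.5 ± 12.1 CPM per kb (SD, n = 4) and Suz12, a core PRC2 subunit, followed with 74.9 ± 9.18, while Kdm1b had dropped to 46.1 ± 6.83. Suz12 did not differ beyond its SD from the next gene, Kmt2c (69.9 ± 7.87). Kdm4d was the least expressed gene in heterozygous cells at every age, from 0.377 to 0.503 CPM per kb, and was read from only 4 to 58 counts per library.

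The age comparisons asked how these genes changed as heterozygous germ cells went from late fetal life to after birth. Between e18.5 and d2, 20 of the 34 genes (58.8%) passed edgeR's quasi-likelihood test with Benjamini-Hochberg adjustment, where 51.2% of all 18619 genes tested did. Of these, 8 rose and 12 fell, while 24.1% of all genes rose and 27% fell. In all 20 the 4 d2 libraries did not overlap the 3 e18.5 libraries, as in 51.5% of all genes. Setdb2, whose age change is set aside below, is among the 8; without it 7 of 33 rose. The median log2 fold change of the 34 was -0.12, beside -0.08 over all genes. Demethylases and the rest differed in their counts: of 14 demethylases 8 fell and 2 rose (median -0.53). Of the 20 methyltransferase and PRC2 genes 4 fell and 6 rose (median 0.06), Setdb2 included in the 6 and in the median. This split by kind was made after the values were seen and was not tested. In the same libraries the summed germ cell markers went from 5828 to 6610 CPM at e18.5 to 4013 to 4449 CPM at d2 (5 of 8 lower by edgeR, 0 higher), and the Sertoli markers from 48.6 to 54.3 CPM to 74.7 to 89.7 CPM (4 of 8 higher, 0 lower); their part in the age changes was not tested.

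The lysine demethylase Kdm1b showed the deepest fall. Its heterozygous libraries held 1376, 1456 and 1986 CPM at e16.5, then 1928, 1574 and 2308 at e18.5, and 206, 241, 286 and 281 at d2. Every d2 library lay far below every embryonic one, a change of -2.94 ± 0.16 (log2 ± SE, 7.65-fold lower; edgeR adjusted p = 4.0e-13) from e18.5. Knockout cells had 1750.4, 1689.8 and 2069.6 CPM at e18.5 against 197, 249, 279 and 207 at d2, and fell by as much (-2.98 ± 0.16, adjusted p = 2.6e-13). Kdm1b overlaps Dek in the RefSeq annotation and the use of strand is not stated. Dek itself went from 310.2 ± 29.0 to 628 ± 118 CPM (SD) in heterozygous cells between e18.5 and d2, the opposite direction. The part of shared reads in the Kdm1b values was not tested.

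Its relative Kdm1a (LSD1), which works with CoREST corepressors, held 538, 491 and 489 CPM at e16.5, 368, 421 and 419 at e18.5, then 196, 214, 234 and 220.2 at d2 in heterozygous cells. The 3 ages did not overlap, although the step from e16.5 to e18.5 missed the threshold (-0.33 ± 0.12, edgeR adjusted p = 0.063). The step to d2 passed it, with -0.90 ± 0.12 (adjusted p = 4.8e-07). Kdm5b, an eraser of H3K4 trimethylation, fell by 0.62 ± 0.13 on the log2 scale (adjusted p = 0.00039) between e18.5 and d2, from 488 ± 30.4 to 318 ± 23.0 CPM. Its paralog Kdm5a read 929 ± 43.5 and 881 ± 82.4 CPM and did not pass (adjusted p = 0.58). Kdm2b targets a variant PRC1 complex to CpG islands. It was the 1 gene of the H3K4 demethylase group that rose (0.33 ± 0.14, edgeR adjusted p = 0.048). This call near the threshold was lost with DESeq2 (adjusted p = 0.086), median-ratio factors and no filter. It was also lost in 17 of 20 fits that left out 1 library.

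**Figure D1:**
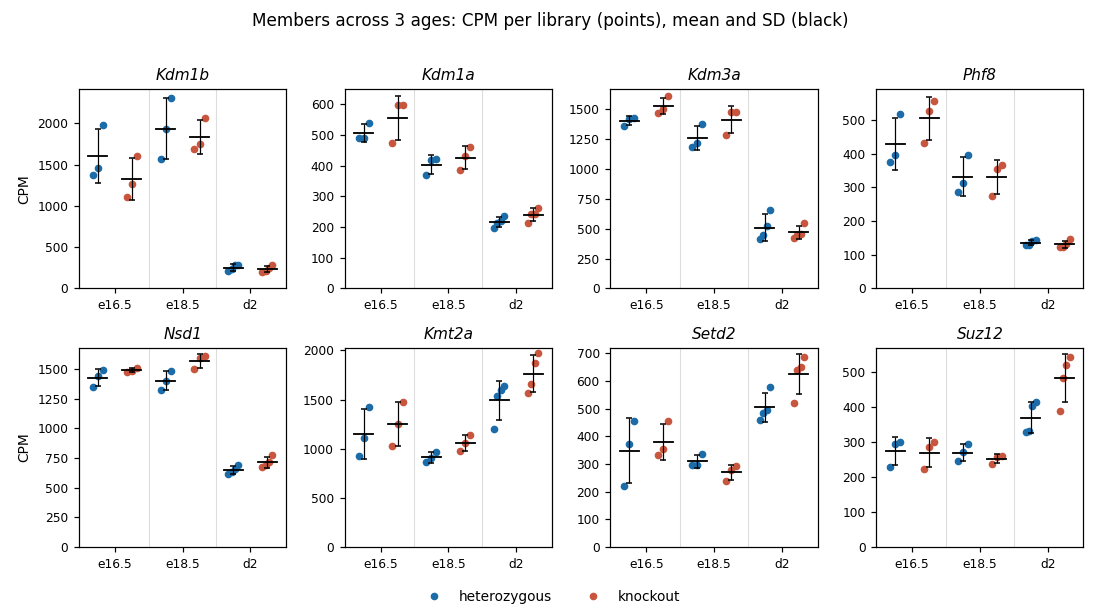
Levels in CPM (vertical axis, linear from 0) of 8 genes in each of 20 libraries, by age (horizontal axis) and genotype (blue heterozygous, red knockout); points are libraries, ordered by value within a group, and black lines are means with SD. Kdm1b, Kdm1a, Kdm3a, Phf8 and Nsd1 lie lower in every d2 library than in every embryonic library, and Setd2 and Suz12 lie higher at d2 than in every library of their genotype at e18.5.

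Of the 8 genes grouped as demethylases of H3K9 and H3K36, 5 fell between e18.5 and d2 in heterozygous cells and none rose. Kdm2b, which rose, was grouped with the H3K4 demethylases. Kdm3a, which removes H3K9 mono- and dimethylation and is needed for sperm formation, held 1422, 1363 and 1429 CPM at e16.5 and 1374, 1186 and 1220.4 at e18.5. At d2 it held 443, 414, 519 and 660.1 CPM, all below the embryonic range (-1.31 ± 0.13 from e18.5, edgeR adjusted p = 7.1e-09). The X-linked H3K9 demethylase Phf8 read 518, 396 and 374 CPM at e16.5, 312, 287 and 397 at e18.5, then 142, 143, 127 and 130.1 at d2. The embryonic ages overlapped each other and none overlapped d2 (-1.29 ± 0.14, adjusted p = 3.6e-08). Kdm2a (H3K36), Kdm4a and Kdm4c (H3K9 and H3K36) fell by 0.45 ± 0.11, 0.74 ± 0.21 and 0.61 ± 0.19 on the log2 scale (adjusted p = 0.0010, 0.0041 and 0.0074). Kdm3b, Kdm4b and Kdm4d did not pass in that step.

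Among H3K36 methyltransferases the genes went in different directions. Nsd1 held 1446, 1350.2 and 1492 CPM at e16.5, 1485, 1327 and 1398 at e18.5, then 616, 629, 656 and 689 at d2 in heterozygous cells. The embryonic libraries of both ages shared a narrow range and every d2 library lay below it (-1.12 ± 0.09, 2.17-fold lower, edgeR adjusted p = 6.5e-10). Setd2, the enzyme of H3K36 trimethylation over gene bodies, went the other way: 297, 296 and 338 CPM at e18.5 and 485, 496, 579 and 459.8 at d2 (0.70 ± 0.17, adjusted p = 0.0012). At e16.5 its 3 libraries were scattered, at 453, 373 and 219 CPM. Ash1l fell slightly (-0.27 ± 0.10, adjusted p = 0.028), while Whsc1 (NSD2) and Whsc1l1 (NSD3) read 365 ± 6.93 against 396 ± 41.2 and 231 ± 19.6 against 212 ± 19.2 CPM and did not pass.

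Of the H3K4 writers, 3 of 8 rose between e18.5 and d2 in heterozygous cells and 1 fell. Kmt2d (MLL4), which acts at enhancers, dipped and returned: 527, 445 and 354 CPM at e16.5, 283, 223 and 211 at e18.5, then 445, 560.2, 474 and 366 at d2. No e18.5 library reached the lowest library of either other age, and both steps passed (-0.89 ± 0.17, edgeR adjusted p = 0.00056, then 0.95 ± 0.16, adjusted p = 1.9e-05). Smyd3 followed the same course at a low level, with means of 23.8 ± 6.80, 12.3 ± 5.34 and 23.5 ± 3.14 CPM (-0.95 ± 0.30, adjusted p = 0.026, then 0.93 ± 0.28, adjusted p = 0.0075). Kmt2a (MLL1) held 966, 861 and 909 CPM at e18.5 and 1593, 1542, 1638 and 1196 at d2 (0.71 ± 0.14, adjusted p = 0.00018), with scattered values of 1426, 1113 and 923 at e16.5. Its paralog Kmt2b (MLL2), needed for H3K4 trimethylation in germ cells, did the reverse, with 407, 379 and 366 CPM at e18.5 and 219, 198, 169.7 and 209 at d2 (-0.95 ± 0.12, adjusted p = 5.7e-07).

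Within PRC2, Suz12 rose and Eed fell, both of them core subunits. Suz12 held 294, 246 and 271 CPM at e18.5 and 332, 403, 416 and 331 at d2 in heterozygous cells (0.46 ± 0.14, edgeR adjusted p = 0.0075). Eed went from 193, 219 and 225 CPM to 111, 150.2, 149 and 126 (-0.66 ± 0.14, adjusted p = 0.00025). Neither gene's groups overlapped. The catalytic subunits and Jarid2, which helps PRC2 bind chromatin, did not pass: Ezh2 read 96.1 ± 10.4 against 92.7 ± 11.8 CPM, Ezh1 at 143 ± 1.53 against 133 ± 30.8 and Jarid2 at 436 ± 50 against 468 ± 36.8. Kdm6b, the opposing H3K27 demethylase, rose from 86.2, 71.7 and 72.7 CPM to 160.3, 168, 150.3 and 153 (1.04 ± 0.18, 2.05-fold, adjusted p = 2.8e-05).

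Setdb2 gave the largest increase by value, from 14 to 53 counts per embryonic library to 341 to 709 at d2, but it is not read as a change with age. Only the embryonic tables list a joined symbol, Setdb2-phf11c, which held 0 counts in all their libraries, and the neighbour Phf11c went from 0 to 1 counts up to 22 to 58. Whether Setdb2 was counted over the same exons in the tables was not tested.

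The smaller step from e16.5 to e18.5 changed 6 of the 34 genes (17.6%) in heterozygous cells, 1 up and 5 down, where 17.8% of all genes passed (7.63% up, 10.2% down). The median log2 fold change of the 34 was -0.13, against 0.04 over all genes. In the same libraries the summed germ cell markers went from 6744 to 8143 CPM to 5828 to 6610 CPM (4 of 8 lower, 1 higher). Sertoli markers went from 42.2 to 48.3 CPM to 48.6 to 54.3 CPM (0 of 8 called). The part of these markers in the step was not tested. Kdm3b, an H3K9 demethylase, fell from 548, 432 and 355 CPM to 247, 213 and 341 (-0.74 ± 0.16, edgeR adjusted p = 0.0018), with groups that did not overlap. Besides Kmt2d and Smyd3, Setd1a and Kdm2a fell by 0.47 ± 0.14 and 0.37 ± 0.11 on the log2 scale (adjusted p = 0.016 and 0.025), and the weakly expressed Setd1b rose from 18.3 ± 5.14 to 32.3 ± 7.52 CPM (0.82 ± 0.23, adjusted p = 0.016). Over the whole span from e16.5 to d2, 22 of 34 genes (64.7%) passed, 7 up (6 besides Setdb2) and 15 down, where 43.1% of all genes did (20.5% up, 22.7% down). The step from e16.5 to e18.5 gave 3 calls without heterozygous replicate 1 or 2 at e16.5 and 9 without replicate 3, and a fit of only the groups compared lost Kdm2a and Smyd3 (adjusted p = 0.087 and 0.064).

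In knockout cells 15 of the 34 genes (44.1%) changed from e16.5 to e18.5, 3 up and 12 down, where 35.1% of all genes passed (17.5% up, 17.7% down). From e18.5 to d2, 25 (73.5%) changed, 10 up (9 besides Setdb2) and 15 down, against 55% of all genes (25.3% up, 29.7% down), and from e16.5 to d2, 21 (61.8%), 6 up (5 besides Setdb2) and 15 down, against 42.7% (20.8% up, 21.9% down). The 20 genes called between e18.5 and d2 in heterozygous cells included 18 that knockout cells changed in the same direction, Setdb2 among them. They made up 90.0% of the heterozygous and 72.0% of the knockout list, where over all genes the shared calls made up 78.9% and 73.4%, and none of the 34 was called in opposite directions. The medians of the 34 in knockout cells were -0.26 for the first step and -0.11 for the second, beside 0.09 and -0.11 over all genes. Without the library labelled knockout replicate 2 at d2, 21 of the 34 genes were called between e18.5 and d2, and 21 between e16.5 and d2. Over all genes 10271 and 7864 were called without it, beside 10238 and 7950 of 18619 with all libraries. The first step gave 8, 10 and 9 calls without knockout replicate 2 at e16.5 or knockout replicate 1 or 3 at e18.5. Between e16.5 and e18.5 the summed markers of knockout cells went from 8023 to 8665 CPM to 5300 to 6353 CPM for germ cells (6 of 8 lower), from 123 to 151 CPM to 230 to 244 CPM for stroma (5 of 9 higher), from 28.1 to 35.9 CPM to 49.3 to 56.9 CPM for Sertoli cells (3 of 8 higher) and from 36.3 to 52.2 CPM to 89.7 to 109 CPM for macrophages and white blood cells (2 of 7 higher, 1 lower). By d2 the germ cell markers of knockout cells stood at 4371 to 5638 CPM (from e18.5, 3 of 8 higher, 4 lower). Sertoli markers stood at 54.9 to 76.9 CPM (2 of 8 higher, 0 lower) and stroma markers at 214 to 332 CPM (2 of 9 higher, 2 lower). Macrophage and white blood cell markers stood at 43.7 to 66.8 CPM (2 of 7 higher, 3 lower). The part of all these markers in the changes was not tested.

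In knockout cells, from e18.5 to d2, Kdm3a, Nsd1, Kmt2b and Phf8 fell by 1.59 ± 0.13, 1.14 ± 0.09, 1.36 ± 0.12 and 1.34 ± 0.14 on the log2 scale (edgeR adjusted p up to 1.3e-08), and Kdm1a fell by 0.83 ± 0.11 (adjusted p = 1.3e-06). Setd2 rose from 277, 293 and 238 CPM to 649, 521, 638 and 687 (1.21 ± 0.17, adjusted p = 1.8e-06). Suz12 rose from 259, 262 and 239 CPM to 484, 389, 545 and 522 (0.94 ± 0.14, adjusted p = 3.3e-06). In both genes every d2 library stood above every e18.5 library. Kmt2a (0.74 ± 0.14), Kmt2d (0.66 ± 0.16), Kdm6b (0.65 ± 0.18) and Smyd3 (1.01 ± 0.29) also rose (adjusted p up to 0.0041), and Kdm4a (-0.95 ± 0.21), Kdm4c (-0.67 ± 0.19), Kdm5b (-0.59 ± 0.13), Eed (-0.54 ± 0.14) and Kdm2a (-0.38 ± 0.11) fell (adjusted p up to 0.0036).

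The 7 genes called between e18.5 and d2 in knockout cells only were Dot1l (-0.81 ± 0.14, edgeR adjusted p = 2.0e-05), Setd7 (-0.57 ± 0.18), Ezh1 (-0.48 ± 0.17), Setd1a (-0.33 ± 0.13), Whsc1l1 (0.33 ± 0.12), Whsc1 (0.27 ± 0.11) and Jarid2 (0.26 ± 0.11), the last 6 with adjusted p from 0.010 to 0.045. DESeq2 did not call Whsc1l1, Whsc1 or Jarid2 (adjusted p = 0.051, 0.11 and 0.14). It called Setd7 lower in heterozygous cells too for this step (log2 fold change -0.44, DESeq2 adjusted p = 0.044). Without the library labelled knockout replicate 2 at d2, Ezh1, Setd1a, Whsc1 and Jarid2 were lost (adjusted p = 0.056, 0.059, 0.054 and 0.072). From e16.5 to e18.5 Kmt2d (-1.17 ± 0.17, adjusted p = 9.8e-06) and Kdm3b (-0.88 ± 0.16, adjusted p = 0.00012) fell again, and Setd7 rose from 50.7, 38.9 and 48.8 CPM to 85.9, 97.0 and 92.1, with no overlap (0.99 ± 0.20, adjusted p = 0.00043). Kmt2b (0.38 ± 0.13) and Kdm1b (0.47 ± 0.17) were the other 2 that rose, while Smyd3, Kdm2a, Setd1a, Phf8, Jarid2, Kdm1a, Kdm6b, Whsc1l1, Kdm5b and Setd2 fell, by 0.36 (Whsc1l1) to 1.48 (Smyd3) on the log2 scale. Of these calls, that of Kdm1b was lost in 7 of the 20 fits that left out 1 library (edgeR adjusted p up to 0.20) and that of Kmt2b in 4 (up to 0.18), and DESeq2 did not call Kdm5b or Setd2 (adjusted p = 0.054 and 0.055). Genes called in 1 genotype are not thereby shown to differ between genotypes; that difference is tested further on. In the plot of age changes, which leaves out Setdb2, both genotypes are drawn side by side.

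**Figure D2:**
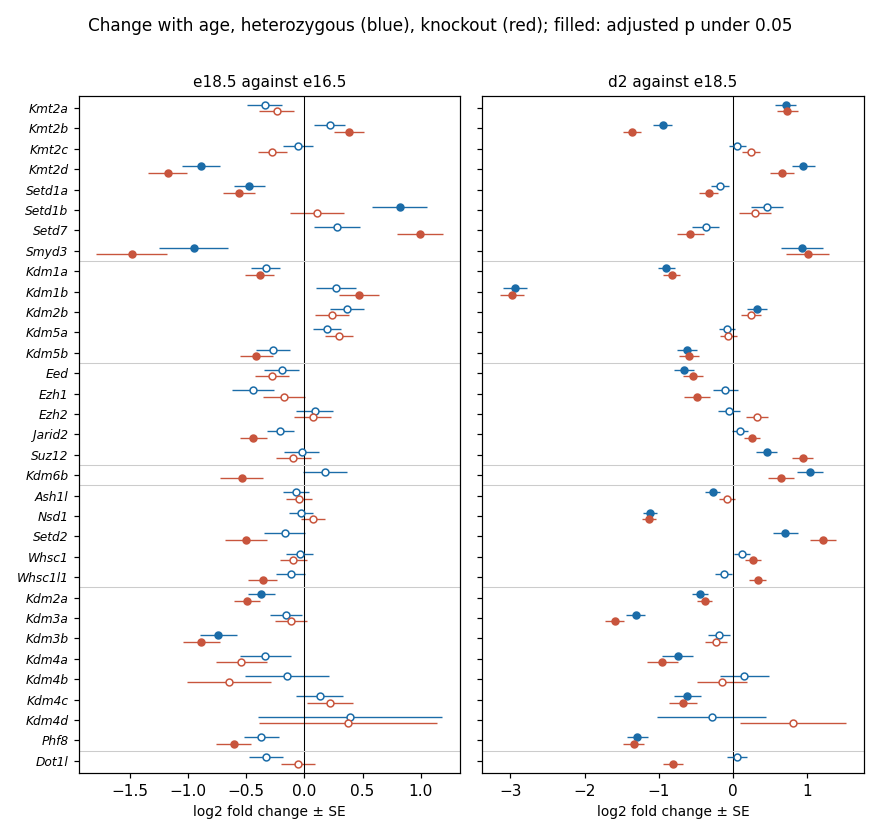
Log2 fold change with its SE (horizontal axis) of 33 genes, ordered by role, from e16.5 to e18.5 (left) and from e18.5 to d2 (right) in heterozygous (blue) and knockout (red) cells; filled points have an edgeR adjusted p under 0.05, and each panel has its own scale. Kdm1b stands farthest to the left in the right panel in both genotypes, at -2.94 and -2.98.

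RefSeq promoter windows (build GRCm38.p6, 250 bases before to 50 after a gene's start) were found by symbol for 22 of the 34 genes. These windows held a median of 26 CG dinucleotides, from 0 in Kdm4c to 56 in Kmt2c, where the median over all 27025 windows was 7. The GC box, searched as GGGCGG on both strands, stood in 12 of the 22 windows (54.5%), beside 35.9% of all windows. The CCAAT box, searched likewise, stood in 10 (45.5%, beside 37.9%), and CACGTG in 0 of 22, beside 7.24%; matches of different motifs may overlap. A match is a description of letters and not a bound site. The 3 genes printed below are examples, and whether GC boxes go with the direction of change was not tested. The stretches upstream of the outermost start are printed for 3 genes that changed between e18.5 and d2 in both genotypes, Kdm1a and Phf8 downward and Suz12 upward, with GC boxes of either strand in capitals. They lie at chr4:136602788-136602973 (minus strand), chrX:151520422-151520640 (plus strand) and chr11:79992856-79993105 (plus strand) and hold 0, 1 and 3 GC boxes.
Kdm1a: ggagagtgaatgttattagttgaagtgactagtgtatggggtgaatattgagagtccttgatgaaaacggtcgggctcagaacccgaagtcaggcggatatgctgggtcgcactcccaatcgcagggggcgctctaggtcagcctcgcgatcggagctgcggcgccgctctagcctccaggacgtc
Phf8: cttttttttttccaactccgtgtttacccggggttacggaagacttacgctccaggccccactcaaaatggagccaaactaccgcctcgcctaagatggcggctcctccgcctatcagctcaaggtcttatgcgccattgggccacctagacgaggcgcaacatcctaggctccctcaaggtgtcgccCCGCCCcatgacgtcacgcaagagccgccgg
Suz12: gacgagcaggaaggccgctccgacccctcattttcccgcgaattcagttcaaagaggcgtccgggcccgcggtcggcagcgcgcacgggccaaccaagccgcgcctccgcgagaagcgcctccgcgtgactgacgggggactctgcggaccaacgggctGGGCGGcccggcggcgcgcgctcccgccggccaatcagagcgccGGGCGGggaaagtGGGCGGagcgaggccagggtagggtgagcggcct

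The genotype comparisons asked what the loss of Tex15 changed at each age. At e16.5 edgeR called 0 of the 34 genes, where 0.0061% of 16384 genes, Tex15 alone, passed. DESeq2 also called 0, and 1 of the 34 (Kdm6b) had an unadjusted p under 0.05, beside 7.73% of all genes. The 34 had a median log2 fold change of 0.13, against -0.01 over all genes, and 27 of 34 were above 0 (48.9% of all genes were). Kdm6b held 82.1, 74.9 and 47.3 CPM in heterozygous and 81.6, 107 and 92.0 in knockout libraries, which overlapped (0.43 ± 0.20, edgeR adjusted p = 0.64). Kmt2d (0.36 ± 0.17, adjusted p = 0.64), Setd1b (0.49 ± 0.25, adjusted p = 0.65), Kdm1b (-0.30 ± 0.18) and Kdm3b (0.27 ± 0.16, both adjusted p = 0.67) were the next smallest p-values. Knockout and heterozygous libraries did not overlap for 3 genes, Whsc1, Kdm3a and Kdm2a, all higher in knockout, where 13.2% of all genes did not overlap. For Kdm6b the heterozygous replicate 3 was the low one, and without it the log2 fold change was 0.23. Summed Sertoli markers at e16.5 were 42.2 to 48.3 CPM in heterozygous and 28.1 to 35.9 CPM in knockout libraries. Summed germ cell markers were 6744 to 8143 CPM and 8023 to 8665 CPM in the same order. EdgeR called 0 of 6 Sertoli and 0 of 8 germ cell markers, and their part in the values was not tested.

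At e18.5 edgeR again called 0 of the 34, where 2.33% of 18075 genes passed, with 4 at an unadjusted p under 0.05 (11.3% of all genes). The gene nearest the threshold was Setd7, a monomethyltransferase of H3K4 and of non-histone proteins. It held 61.9, 51.2 and 73.3 CPM in heterozygous and 85.9, 97.0 and 92.1 in knockout libraries. The groups did not overlap and the fitted difference was 0.56 ± 0.16 (1.47-fold, edgeR adjusted p = 0.069). Dot1l, the sole known H3K79 methyltransferase, read 177, 168 and 150.5 CPM against 214, 221 and 224, again with no overlap (0.41 ± 0.12, adjusted p = 0.10). DESeq2 called both genes higher in knockout (adjusted p = 0.029 and 0.046), and Setd7 was also called with no filter on low counts (adjusted p = 0.046) and without heterozygous replicate 3 (adjusted p = 0.016).

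The next smallest p-values at e18.5 belonged to Ezh1 (0.41 ± 0.15, edgeR adjusted p = 0.23), Kdm5a (0.23 ± 0.10, adjusted p = 0.42) and Kmt2a (0.21 ± 0.10, adjusted p = 0.45). For Ezh1 knockout replicate 1, at 143 CPM, lay among the heterozygous libraries (143, 145 and 142), whereas the other two held 216 and 213. Without that library Ezh1 was called (log2 fold change 0.58, adjusted p = 0.034). Groups did not overlap for 7 of 34 genes, 5 higher and 2 (Setd2 and Whsc1l1) lower in knockout, where 16.8% of all genes did not overlap. Beside these values, the summed level of 7 macrophage and white blood cell markers at e18.5 was 30.3 to 43.0 CPM for heterozygotes. It was 89.7 to 109 CPM for knockouts, with 0 of 7 markers at 0. EdgeR called 2 of the 5 tested higher in knockout and 0 lower. Of 8 stroma markers tested 1 was called higher and 0 lower, and 0 of 8 germ cell markers were called. The part of these markers in the differences was not tested.

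**Figure D3:**
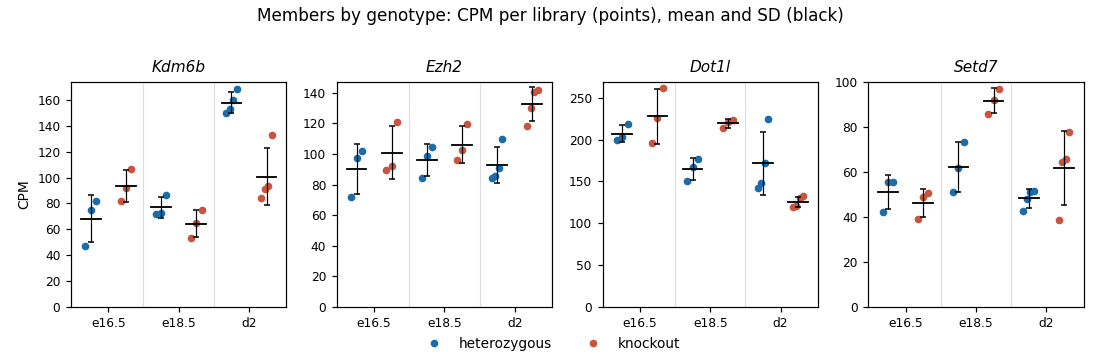
Levels in CPM (vertical axis, linear from 0) of Kdm6b, Ezh2, Dot1l and Setd7 in each library by age and genotype (blue heterozygous, red knockout), with means and SD in black. At d2 the 4 knockout libraries of Kdm6b lie between 84.1 and 133, below the heterozygous range of 150.3 to 168, and those of Ezh2 lie between 118 and 142, above the heterozygous range.

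At d2, 2 of the 34 genes (5.88%) passed, where 2.8% of 15343 genes did: the H3K27 demethylase Kdm6b fell and the H3K27 methyltransferase Ezh2 rose. Kdm6a, another H3K27 demethylase, read 85.5 ± 12.1 CPM (SD) in heterozygous and 102 ± 4.22 CPM in knockout libraries and was not called. Its Y-linked relative Uty was called higher, as given further on. Tex15 itself was not called at d2 with all libraries. Without the library labelled knockout replicate 2 it was called (log2 fold change -8.45, edgeR adjusted p = 3.1e-14). Kdm6b held 160.3, 168, 150.3 and 153 CPM in heterozygous and 91.4, 93.5, 84.1 and 133 in knockout libraries. Knockout replicate 4 was the nearest to the heterozygous range and still below it. The log2 fold change was -0.66 ± 0.14 (1.57-fold lower, edgeR adjusted p = 0.016), and without the library labelled knockout replicate 2 it was -0.62 (adjusted p = 0.032). Leaving out knockout replicate 1 or 3, or heterozygous replicate 1, lost the call (adjusted p = 0.080, 0.078 and 0.057).

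Ezh2 held 84.4, 90.7, 109.8 and 85.7 CPM in heterozygous and 118, 141, 142 and 130.0 in knockout libraries at d2. All knockout libraries were higher, by 0.52 ± 0.14 (1.43-fold, edgeR adjusted p = 0.045), close to the threshold. Without the library labelled knockout replicate 2 the difference was 0.48 (adjusted p = 0.073), and the call was lost in 7 of the 8 fits that left out 1 library (adjusted p up to 0.15). With that library left out, Suz12 was called in its place (log2 fold change 0.48, adjusted p = 0.032).

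Suz12 read 332, 403, 416 and 331 CPM in heterozygous and 484, 389, 545 and 522 in knockout libraries at d2. Replicate 2 was the 1 knockout library within the heterozygous range, and with all libraries the difference was 0.39 ± 0.12 (edgeR adjusted p = 0.11). Dot1l was lower in every knockout library, at 120.4, 129.9, 119 and 132 CPM against 172, 225, 142 and 147 (-0.46 ± 0.14, adjusted p = 0.098). Its heterozygous replicate 2 lay highest, and without it the log2 fold change was -0.30 (adjusted p = 0.26). Setd2 followed with 0.30 ± 0.11 (adjusted p = 0.18).

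Across the 34 genes at d2 the median log2 fold change was 0.10, against -0.02 over all genes, 20 of 34 were above 0 (47.9% of all genes were), and 12 had an unadjusted p under 0.05 (35.3%, beside 16.2% of all genes). Groups did not overlap for 6 genes, 4 higher in knockout (Ash1l, Whsc1, Ezh2 and Whsc1l1) and 2 lower (Dot1l and Kdm6b), where 9.73% of all genes did not overlap. Without the library labelled knockout replicate 2, 11 genes had an unadjusted p under 0.05 (17.9% of all genes) and 11 did not overlap (16.9% of all genes). All 5 H3K36 methyltransferases had values above 0, from 0.14 to 0.30, though none passed, as the plot of knockout changes shows. The 5 PRC2 genes were all above 0 as well, from 0.03 to 0.52, and 1 of them, Ezh2, passed. Summed Sertoli cell markers were 74.7 to 89.7 CPM in heterozygous and 54.9 to 76.9 CPM in knockout libraries at d2 (1 of 6 lower). Summed germ cell markers were 4013 to 4449 CPM and 4371 to 5638 CPM in the same order (1 of 8 higher). The part of these markers in the results was not tested.

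**Figure D4:**
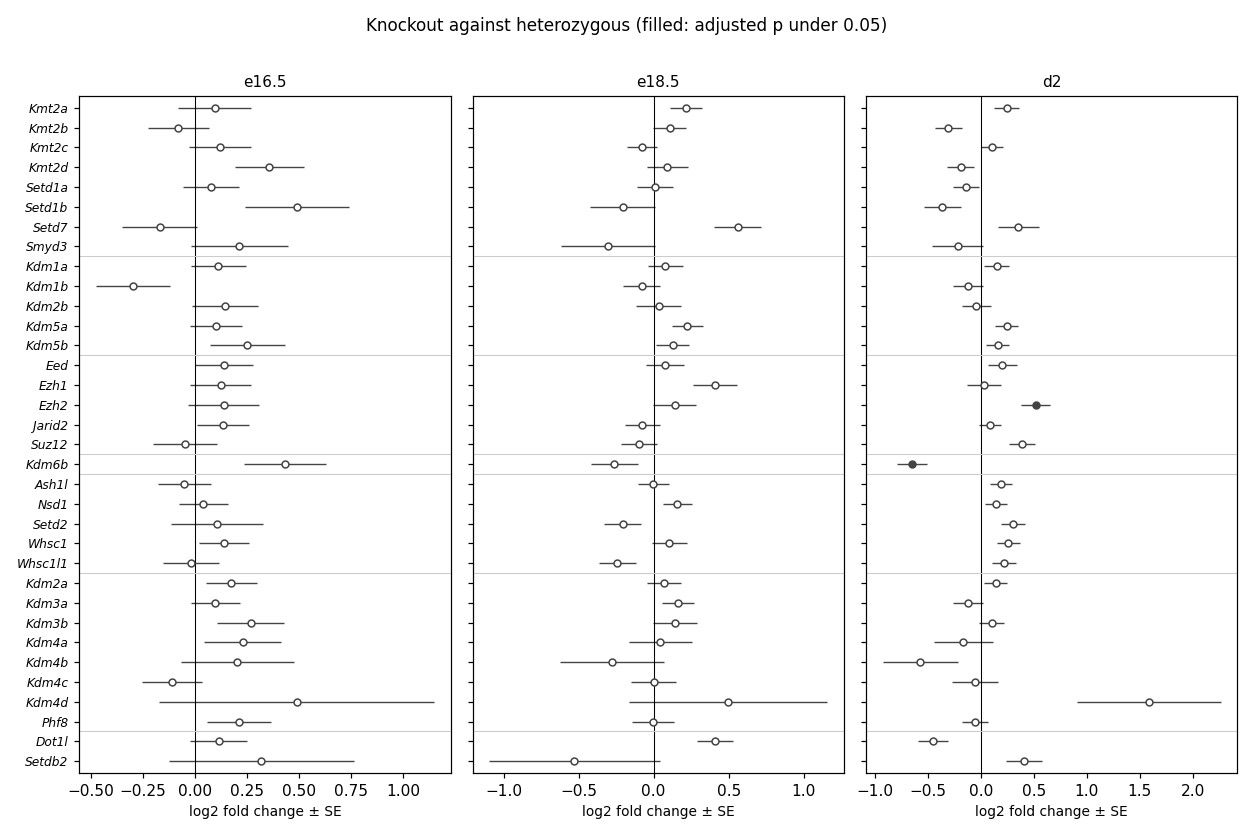
Log2 fold change of knockout against heterozygous cells with its SE (horizontal axis) for the 34 genes, ordered by role, at e16.5, e18.5 and d2; filled points have an edgeR adjusted p under 0.05, and each panel has its own scale. Only Ezh2 and Kdm6b at d2 are filled; the wide bars belong to the weakly counted Kdm4d, Kdm4b and Setdb2.

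Whether the knockout effect itself changed with age was tested in a fit of all 20 libraries. Between e16.5 and e18.5 edgeR called 0 of 34 genes, where 0.0967% of all genes passed; DESeq2 called 0 and 3 had an unadjusted p under 0.05 (6.39% of all genes). The 5 smallest p-values were those of Kdm6b (-0.71 ± 0.26), Setd7 (0.71 ± 0.28), Setd1b (-0.71 ± 0.33), Setdb2 (-0.86 ± 0.50) and Jarid2 (-0.23 ± 0.16), with edgeR adjusted p from 0.58 to 0.87. Between e18.5 and d2, 1 of 34 passed, against 0.526% of all genes. That gene was Dot1l, higher in knockout at e18.5 and lower at d2, a difference of -0.86 ± 0.20 (adjusted p = 0.038). Its call was lost in 12 of the 20 fits that left out 1 library (adjusted p up to 0.13, without heterozygous replicate 3 at e18.5), while without the library labelled knockout replicate 2 at d2 it stood (adjusted p = 0.032). Whsc1l1 (0.46 ± 0.16), Suz12 (0.48 ± 0.19), Kmt2b (-0.41 ± 0.18) and Setdb2 (0.93 ± 0.43) came next, with adjusted p from 0.20 to 0.34.

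Between e16.5 and d2, again 1 of 34 passed, against 0.8% of all genes. Kdm6b changed from a knockout value above the heterozygous one at e16.5 to one below it at d2, a difference of -1.11 ± 0.25 (edgeR adjusted p = 0.023). In heterozygous cells Kdm6b rose from e16.5 to d2 by 1.21 ± 0.18 (adjusted p = 4.2e-06), while in knockout cells the change was 0.11 ± 0.17 (adjusted p = 0.65). Without the library labelled knockout replicate 2 at d2 the difference was -1.07 (adjusted p = 0.044). It was no longer called without heterozygous replicate 3 or knockout replicate 2 or 3 at e16.5, or without knockout replicate 1 or 3 at d2 (adjusted p up to 0.10). Dot1l (-0.59 ± 0.20), Setd1b (-0.87 ± 0.31), Kmt2d (-0.57 ± 0.22) and Suz12 (0.41 ± 0.19) followed, with adjusted p from 0.19 to 0.40.

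A list of 70 partner genes (COMPASS, PRC1 and other PRC2 subunits, CoREST and DOT1L partners, and further lysine methyltransferases and demethylases) was read beside the 34. Of 69 measured at each age, knockout against heterozygous gave 0 calls at either fetal age with both edgeR and DESeq2, while 4 (5.80%, e16.5) and 8 (11.6%, e18.5) had an unadjusted p under 0.05, beside 7.73% and 11.3% of all genes. The smallest p-values were those of Setd3 (0.42 ± 0.15, edgeR adjusted p = 0.63) and Hcfc1 (-0.36 ± 0.12, adjusted p = 0.20). At d2, 3 of 69 (4.35%) passed with edgeR and 5 with DESeq2, where 2.8% of all genes passed with edgeR. The 3 rose: Ncoa6, a subunit of the KMT2C and KMT2D complexes (0.47 ± 0.11, adjusted p = 0.019), Uty, the Y-linked relative of the H3K27 demethylase Kdm6a (0.65 ± 0.17, adjusted p = 0.045), and Setd5 (0.37 ± 0.10, adjusted p = 0.047). The mean level of Ncoa6 was 403 ± 24.7 CPM in heterozygotes and 558 ± 29.9 CPM in knockouts (SD, n = 4). It was also called in both tests of the difference with d2, against e18.5 (0.68 ± 0.16, adjusted p = 0.039) and e16.5 (0.67 ± 0.16, adjusted p = 0.035). The Setd5 call was lost in each of the 8 fits that left out 1 library, Uty in 7 and Ncoa6 in 2 (without knockout replicate 1 or 4). Without the library labelled knockout replicate 2, Uty and Ncoa6 were called (adjusted p = 0.028 for both) and Setd5 was not (adjusted p = 0.070).

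Between e18.5 and d2 in heterozygous cells, 39 of 66 partners (59.1%) passed, 24 up and 15 down, where 51.2% of all genes did (24.1% up, 27% down). More partners rose than fell, while over all genes more fell than rose. COMPASS partners gave 7 increases and 2 decreases of 10, among them Wdr5 (0.98 ± 0.18, edgeR adjusted p = 6.7e-05), Dpy30 (1.05 ± 0.21, adjusted p = 0.00017) and Ash2l (-0.75 ± 0.12, adjusted p = 7.5e-06). Of the other 6 PRC2 subunits 5 rose, Phf19 most (1.28 ± 0.33, adjusted p = 0.0022). The DOT1L partner Mllt3 (AF9) fell from 485 ± 27.6 to 132 ± 38.7 CPM (-1.88 ± 0.15, adjusted p = 3.5e-10). Hdac2, a partner of Kdm1a in CoREST complexes, fell by 1.01 ± 0.13 on the log2 scale, while Hdac1 rose by 1.05 ± 0.23 (adjusted p = 7.7e-07 and 0.00038).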

How the data were processed

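The deposited tables hold raw read counts per gene symbol and per repeat name, 1 table per age with a column per library. Per the submitters' processing notes, the tools were STAR, featureCounts, edgeR and Bowtie and the build was mm9; versions and roles are not given in the sources used here. Libraries were made from total RNA with amplifying kits, per the labels' protocols, and the use of strand is not stated. The 1217 repeat names, 43.2% to 65.0% of a library's counts, were left out of library sizes and tests, and separate tables of repeat families were not used.

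For knockout against heterozygous, edgeR 4.0.16 (R 4.3.3) was run on 1 age at a time: low genes were removed by filterByExpr (10 counts, 15 in total), TMM factors were set, and the robust quasi-likelihood F test was adjusted over all genes by Benjamini-Hochberg (threshold 0.05). Age changes and differences of the knockout effect came from a fit of all 20 libraries. SE is the log2 fold change divided by the root of F. Alternatives were leaving out each library, DESeq2 1.42.0, its median-ratio factors in edgeR, an unfiltered table, a replicate block, all ages in 1 fit and only the groups compared. Fits were tested on simulated data. The 34 genes, their role groups, the partner and marker lists and the naming rule (called genes, or the 5 smallest p-values; called partners, or the smallest p) were chosen with earlier results of these data known. No 2 libraries agreed within counting noise (lowest chi-square per degree of freedom 9.97 over 24 replicate pairs). RefSeq annotation shows overlapping genes for 7 of the 34 genes (Kdm1a, Kdm1b, Kdm5a, Kdm5b, Setd7, Whsc1 and Ash1l). The part of shared reads in their values was not tested.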

Additional observations from a re-analysis of the deposited data

Results flagged for a closer look

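At d2, Ezh1 read 178.8 CPM in heterozygous replicate 2 against 114.7 to 124.2 CPM in the other heterozygous libraries. Jarid2 read 452.1 CPM in knockout replicate 1 against 510.1 to 513.9 CPM in the other knockout libraries. Each was a single library far from the rest of its group by Dixon's criterion; of 68 groups of 4 libraries checked, 2 were marked, where chance marks about 3.4. The knockout effect on Dot1l differed between e18.5 and d2 by -0.86 on the log2 scale, and that on Kdm6b between e16.5 and d2 by -1.11, both by edgeR's test of the difference itself (adjusted p = 0.038 and 0.023).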

How the results depend on the processing

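No value reversed: of 3224 alternative values of named genes and comparisons, 3025 kept their direction and side of the threshold, 188 fell short of it and 11 newly passed; the causes were not tested. DESeq2 called 22 genes at e16.5 (1 in edgeR), 820 at d2 (430) and 2 of the 34 at e18.5 (0), and 69, 400 and 325 genes in the differences of the knockout effect for e18.5 against e16.5, d2 against e18.5 and d2 against e16.5 (18, 98 and 149). No filter gave 2 genes at e16.5 and 1 of the 34 at e18.5. All ages in 1 fit gave 0, 152 and 770 genes at e16.5, e18.5 (422) and d2, and 3 of the 34 at d2. Tex15 itself was thus not called at e16.5 in this fit. The age changes and the differences of the knockout effect came from the same fit.

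Leaving out 1 library gave 1 to 25, 274 to 502 and 187 to 573 genes for knockout against heterozygous at e16.5, e18.5 and d2, with 0 to 1 of the 34 at e18.5 and 0 to 2 at d2. It gave 3 to 9 of the 34 and 1740 to 4077 genes for e18.5 against e16.5 in heterozygous cells, and 8 to 17 of the 34 in knockout cells. For the differences of the knockout effect it gave 3 to 38, 31 to 226 and 92 to 237 genes, with 0 to 1 of the 34 for d2 against e18.5 and for d2 against e16.5.

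Same-numbered libraries showed no clear shared deviation (correlations -0.307 to 0.121, own number best in 4 of 10). With so few libraries per group, this check cannot exclude that replicate numbers pair the samples. The labels do not say what the numbers mark. With a replicate block, 2 of the 34 were called at e18.5, 1 at d2 and 0 for the difference of d2 against e18.5 (Setd7 and Dot1l passed at e18.5, adjusted p = 0.026 and 0.038; Ezh2 at d2 and the Dot1l difference did not, 0.069 and 0.057, nor Uty and Setd5, 0.075 and 0.070), with 235 genes at d2 and 6 and 48 genes in the differences of e18.5 against e16.5 and d2 against e18.5. The block could not be fitted for age changes, where each library belongs to 1 age.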
